A study of Schizosaccharomyces pombe with 6 samples.

Results

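Untreated fission yeast (Schizosaccharomyces pombe) growing in rich medium is described here through the polyA RNA of its 2 untreated libraries, out of 6 libraries in the whole series. The members were chosen by their label alone: both came from wild-type cells that received no drug. The strain is 972, a wild type of the h- (M) mating type, and was grown in YES, a complete medium of yeast extract with glucose. The other libraries came from the same strain in the same medium after 5 h with 100 nM rapamycin (2 libraries) or 100 nM rapalink-1 (2 libraries), both inhibitors of the TOR kinase. All flasks were divided out of a pair of mother cultures, so untreated and drug-treated libraries share their inoculum, and the labels do not say which library came from which mother culture. The question asked of the untreated libraries was how the RNA of an undisturbed growing culture is spread over its genes: which functions take the largest shares, which copy of a duplicated gene carries the RNA, and which classes of genes are barely detected.

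Fission yeast is a unicellular eukaryote with a compact genome in which many neighbouring genes converge and overlap. In glucose it ferments even when oxygen is present, and a dividing culture must also duplicate its ribosomes in every cell cycle. Ribosomal protein genes and glycolytic genes are therefore known as the most heavily transcribed genes of growing yeasts. TOR complex 1 is the kinase that couples nutrient supply to this growth programme.

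The untreated libraries held 19678440 and 17782822 reads assigned to genes, within the range of 16527483 to 26321118 over the 6 libraries. Levels are given as FPKM, fragments per kilobase of gene model scaled to library size, and values written as a pair are untreated replicates 1 and 2 in this order. Protein-coding genes held 99.4% of the summed FPKM in both polyA-captured libraries, and their median was 35.4 FPKM in both. Over the 5145 protein-coding genes the replicates correlated with a Pearson r of 0.999 on the log2 scale and a Spearman rho of 0.998, across genes, which are not independent replicates. They differed by more than sampling noise (chi-square per degree of freedom 4.86 over 5657 genes) and were counted as 2 samples. Their median absolute log2 difference fell with level, from 0.64 for genes below 1 FPKM to 0.14 between 1 and 10 FPKM, 0.060 between 10 and 100 FPKM and 0.031 above 1000 FPKM. A class share is the summed FPKM of the class divided by that of all protein-coding genes, given as mean ± SD over the 2 libraries. Since the RNA came from whole cultures, fewer cells with a transcript and less of it in every cell cannot be told apart.

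The protein-coding transcriptome was steeply ranked. The highest gene, tdh1, held 1.13% of the summed FPKM, the 10 highest genes held 8.54%, the 100 highest 44.4% and the 500 highest 73.1%. A share of 50% was reached with 128 genes (127 in replicate 1 and 129 in replicate 2; 250 genes when counted in reads and 67 over genes with no overlapping model) and 90% with 1629 genes, while the lower 2573 genes together held 4.08%. The same 100 genes were the 100 highest in both replicates. Most genes lay in the middle: 2727 were between 10 and 100 FPKM, 921 between 100 and 1000 FPKM, and 158 above 1000 FPKM. At the other end 836 genes (16.2%) were below 1 FPKM, and 487 of these (9.47% of all protein-coding genes) had no read in either library.

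The 20 highest genes came from 3 functions. There were 13 ribosomal protein genes, 5 glycolytic genes and 2 genes for elongation factor 1 alpha among them. The head of the list was glycolytic: tdh1, encoding glyceraldehyde-3-phosphate dehydrogenase (chromosome II, 2807534 to 2809051 in the deposited gene models), was at 8605 and 8601 FPKM. The aldolase gene fba1 (II, 1688336 to 1689599) followed at 8214 and 8386 FPKM. The phosphoglycerate mutase gene gpm1 (I, 5173864 to 5174644) was at 8172 and 8147 FPKM. The order of these 3 genes was the same in both replicates, but in replicate 1 fba1 and gpm1 lay closer together than the replicates of fba1 did. The highest ribosomal protein gene was ubi3, which encodes ubiquitin fused to a ribosomal protein and stood at 6840 and 6947 FPKM. Genes largely covered by another gene model may be missing from these 20, since a low value there need not measure their RNA.

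**Figure D1:**
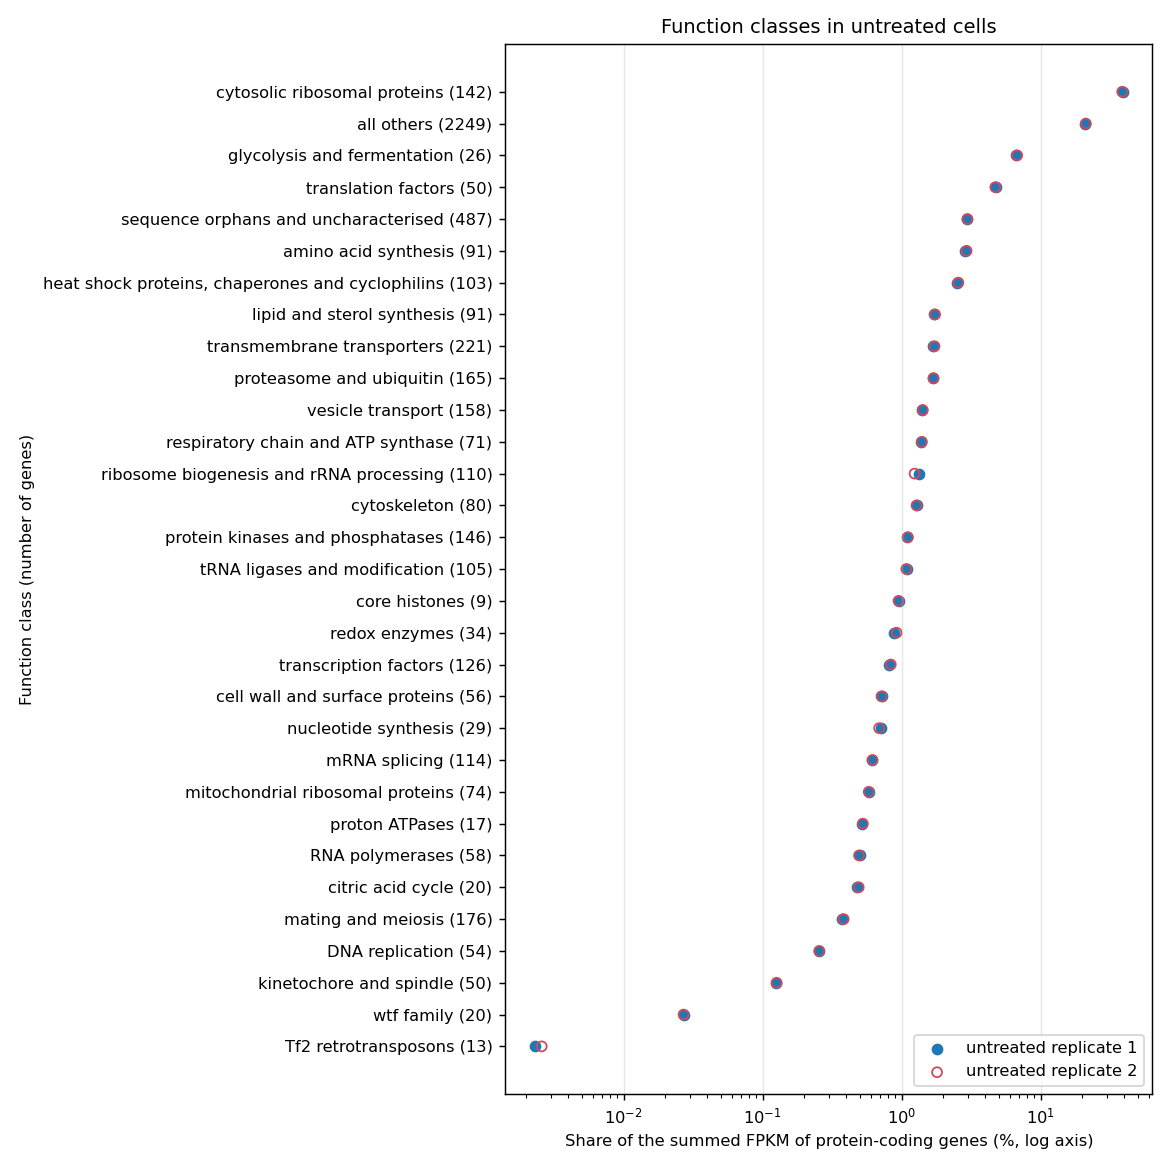
Share of the summed FPKM of protein-coding genes (percent, log axis) held by each of 31 function classes in untreated replicate 1 (filled points) and replicate 2 (open circles), with the number of genes of each class in parentheses. Cytosolic ribosomal proteins sit at 39.1% and 38.6% and Tf2 retrotransposons, the lowest class, at a mean of 0.00243%; the points of the 2 replicates nearly coincide, with a visible gap for ribosome biogenesis (1.33% and 1.24%) and for Tf2.

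Genes of the translation apparatus took the largest part of the transcriptome. The 142 genes of cytosolic ribosomal proteins held 38.9 ± 0.37% of the summed FPKM (39.1% and 38.6%, n = 2). With translation factors, ribosome biogenesis genes and tRNA enzymes, the 407 genes of this apparatus held 46.0 ± 0.47% (46.3% and 45.7%, n = 2). FPKM divides by length and so follows transcripts; counted in reads, the short ribosomal protein genes held 21.1%. The 56 small subunit (40S) genes had a median of 2273 FPKM, and the 83 large subunit (60S) genes a median of 1900 FPKM. Of all 142 genes, 101 had less than 10% of their span covered by another gene model. Their lowest, median and highest levels were 266, 2513 and 6893 FPKM, and 91 of them were above 1000 FPKM. The 26 ribosomal protein genes with more than 90% of their span covered were all below 1 FPKM, and 25 had no read. The class was thus split into very high and nearly undetected genes along the overlap of the gene models, whose part in the zeros was not tested.

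The highest ribosomal protein genes after ubi3 were rpl8 (60S protein L7a/L8, 5744 and 5678 FPKM), rps13 (40S protein S13, 5496 and 5294 FPKM), rpl3401 (60S protein L34, 5257 and 5158 FPKM), rps102 (40S protein S3a, 5111 and 4991 FPKM) and rps2 (40S protein S2, 5077 and 4995 FPKM). Fission yeast ribosomal protein promoters are known for the HomolD box, which takes the place of a TATA box, and for the HomolE box near it. Of the 142 ribosomal protein genes, 90 (63.4%) held the HomolD letters CAGTCACA on either strand between 250 bases before and 50 bases after the start of the RefSeq gene, against 137 of all 5108 protein-coding genes (2.68%). The HomolE letters ACCCTACC were present in 41 (28.9%), against 83 of all genes (1.62%). The HomolD letters kept a narrow distance: of 94 matches 93 were upstream, 63 read forward and 31 in reverse, and their first base had a median position of −51 from the gene start, with quartiles of −57 and −47. The 100 bases before the gene start are shown for 4 of the highest ribosomal protein genes, chosen because they hold the HomolD letters, to make this arrangement visible; the stretch of ubi3 held none. Capitals mark the HomolD letters and, where present, the HomolE letters on either strand; the sequences are from RefSeq (build ASM294v3), 5′ to 3′ on the strand of the gene.
rpl8 (chrII:2045375-2045474, plus strand): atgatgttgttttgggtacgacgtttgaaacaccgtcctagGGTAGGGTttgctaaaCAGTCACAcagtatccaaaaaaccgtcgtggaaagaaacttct
rpl3401 (chrI:4093799-4093898, minus strand): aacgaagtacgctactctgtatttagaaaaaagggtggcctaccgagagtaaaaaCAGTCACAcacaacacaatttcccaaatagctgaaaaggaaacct
rps102 (chrI:898963-899062, minus strand): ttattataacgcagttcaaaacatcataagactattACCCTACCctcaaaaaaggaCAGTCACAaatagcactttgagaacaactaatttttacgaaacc
rps2 (chrIII:2096037-2096136, minus strand): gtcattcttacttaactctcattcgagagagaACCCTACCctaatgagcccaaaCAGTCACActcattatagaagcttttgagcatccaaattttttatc
In these 4 stretches the HomolD letters begin at positions −43, −45, −44 and −46 from the gene start, and the HomolE letters of rpl8, rps102 and rps2 lie farther upstream. Among ribosomal protein genes covered over less than 50% of their span, the 74 with the HomolD letters had a median of 2530 FPKM and the 39 without them a median of 2198 FPKM. With the HomolE letters the median was 2919 FPKM (33 genes) and without them 2163 FPKM (80 genes). The ranges overlapped broadly, from 266 to 5711 FPKM with the HomolD letters and from 276 to 6893 FPKM without. These matches are descriptions of letters in a window, with no test.

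Translation factors, 50 genes, held 4.75 ± 0.043% of the sum (n = 2). Elongation factor 1 alpha, which brings charged tRNA to the ribosome, led with tef101 at 4883 and 4873 FPKM and tef103 at 4653 and 4525 FPKM. Its nucleotide exchange factor tef5 was at 3095 and 2998 FPKM. The HomolD letters were present in 5 of the 49 translation factor genes with a window (10.2%). The genes that build ribosomes were far lower than those of the ribosome itself: the 110 ribosome biogenesis and rRNA processing genes held 1.28 ± 0.061% with a median of 43.8 FPKM. Their highest members encode proteins of the snoRNPs, the particles that guide rRNA modification, namely snu13 (1410 and 1372 FPKM), the rRNA methyltransferase fib1 (1089 and 1030 FPKM) and nop58 (511 and 497 FPKM). The 105 genes of tRNA ligases and modification held 1.08 ± 0.0034%. They were led by asc1, a cofactor of methionyl- and glutamyl-tRNA synthetases (463 and 438 FPKM), and by the lysine and asparagine ligases krs1 (445 and 442 FPKM) and nrs1 (399 and 420 FPKM).

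Glycolysis and fermentation formed the next largest named class, with 6.71 ± 0.098% of the sum in 26 genes (6.64% and 6.78%, n = 2). Of these genes 4 had over 50% of their span covered by other gene models, among them the alcohol dehydrogenase gene adh1 (93.2%). Their values need not measure their RNA, so the share may leave out part of the class. The enolase gene eno101 (5920 and 5981 FPKM) and the triosephosphate isomerase gene tpi1 (5711 and 5626 FPKM) were also among the 10 highest genes. Lower glycolysis was further represented by pgk1, phosphoglycerate kinase (3639 and 3795 FPKM), and fermentation by pdc101, pyruvate decarboxylase (3679 and 3751 FPKM), the enzyme that commits pyruvate to ethanol; both were picked after their values were seen. Ribosomal proteins and glycolysis together took 45.6 ± 0.27% of the sum with 168 genes. Upstream of glycolytic genes the HomolD letters were found in 1 of 26 (tpi1), and the TATA letters TATAAA, on either strand, in 11 of 26 (42.3%), against 27.5% of ribosomal protein genes and 48.0% of all genes. Upstream stretches of 2 glycolytic genes, chosen because they hold the TATA letters, are printed with these in capitals; fba1, eno101, tpi1 and pdc101 held none in their 100 bases.
tdh1 (chrII:2807495-2807594, plus strand): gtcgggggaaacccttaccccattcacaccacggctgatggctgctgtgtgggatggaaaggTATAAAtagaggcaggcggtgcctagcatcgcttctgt
pgk1 (chrII:4159462-4159561, minus strand): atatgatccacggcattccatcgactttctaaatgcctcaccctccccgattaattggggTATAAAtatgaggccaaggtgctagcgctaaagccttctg
The share of glycolytic genes with the exact letters TATAAA was thus near that of all genes, whereas that of ribosomal protein genes was lower. Variants were not counted: the stretches of fba1, eno101, tpi1 and pdc101 hold the letters TATATA.

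In this polyA-captured RNA, mitochondrial energy metabolism took a smaller share than glycolysis. The respiratory chain class includes mitochondrially encoded genes such as cox2 and cox3, which were below 1 FPKM. Whether the capture recovered their RNA was not tested. The 71 genes of the respiratory chain and ATP synthase held 1.39 ± 0.014%, the 20 citric acid cycle genes 0.482 ± 0.012%, and the 74 mitochondrial ribosomal protein genes 0.579 ± 0.00052%, which together made 2.45 ± 0.027% (n = 2). The ATP synthase beta subunit gene atp2 was at 964 and 986 FPKM and cytochrome c, cyc1, at 718 and 729 FPKM. The succinate dehydrogenase genes sdh1, sdh2 and sdh3, whose products join the cycle to the respiratory chain, lay close together at 465 and 467, 447 and 447, and 443 and 458 FPKM. The median citric acid cycle gene was at 149 FPKM, above the median of all protein-coding genes.

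Biosynthesis and protein care followed. Amino acid synthesis (91 genes) held 2.90 ± 0.044%, led by ilv5 of branched-chain amino acid synthesis (2124 and 2145 FPKM), met26, which methylates homocysteine to methionine (1811 and 1914 FPKM), and shm1, serine hydroxymethyltransferase (1143 and 1160 FPKM). Lipid and sterol synthesis (91 genes) held 1.73 ± 0.014%, with the acyl-CoA desaturase SPCC1281.06c at 1685 and 1774 FPKM and the sterol desaturase erg5 at 591 and 594 FPKM. Nucleotide synthesis (29 genes) held 0.699 ± 0.014%, with gua1, the IMP dehydrogenase of GMP synthesis, at 965 and 912 FPKM. Chaperones and cyclophilins (103 genes) held 2.54 ± 0.031%. Their highest member was sks2, an Hsp70 of the ribosome-associated kind (2675 and 2699 FPKM), ahead of the cyclophilin ppi1 (1718 and 1721 FPKM) and the cytosolic Hsp70 ssa2 (1498 and 1519 FPKM). Redox enzymes (34 genes) held 0.899 ± 0.028%, and their highest members were the peroxiredoxins tpx1 (1260 and 1289 FPKM) and pmp20 (850 and 976 FPKM) and the thioredoxin trx1 (1167 and 1183 FPKM). Proteasome and ubiquitin genes, 165 in number, held 1.69 ± 0.011%, with ubc4, a ubiquitin-conjugating enzyme, at 851 and 767 FPKM.

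Structural and surface functions were each led by a few genes. Actin, act1, was at 1985 and 1976 FPKM, and its partners cofilin (adf1, 1092 and 1041 FPKM) and profilin (cdc3, 819 and 775 FPKM) came next in the cytoskeleton class of 80 genes, which held 1.28 ± 0.0020%. The cell wall protein gene ecm33 was at 1219 and 1189 FPKM and SPCC1322.10 (Pwp1) at 1042 and 1048 FPKM. The plasma membrane proton pump pma1, which sets the gradient for nutrient uptake, was at 1210 and 1216 FPKM, and the vacuolar ATPase proteolipid vma3 at 516 and 497 FPKM. The highest of 221 transporter genes, which held 1.71 ± 0.022%, were the hexose transporter ght8 (784 and 756 FPKM), the mitochondrial adenine nucleotide carrier anc1 (615 and 641 FPKM) and the copper transporter subunit ctr4 (587 and 557 FPKM). The small GTPase gene arf1 of vesicle budding was at 1152 and 1145 FPKM.

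Regulatory and cell cycle classes each held 1.10% of the sum or less. Their medians lay on both sides of the median of all protein-coding genes (35.4 FPKM). The 146 protein kinase and phosphatase genes held 1.10 ± 0.015% with a median of 42.0 FPKM, and the phosphatase gene dis2 was at 278 and 282 FPKM. The 126 transcription factor genes held 0.825 ± 0.014%, led by the coactivator SPBC83.17 (Mbf1, 432 and 438 FPKM), with zip1 at 283 and 276 FPKM. DNA replication genes (54) held 0.254 ± 0.0016%, with the sliding clamp pcn1 at 235 and 239 FPKM, and kinetochore and spindle genes (50) held 0.125 ± 0.0017%, with a median of 16.3 FPKM. RNA polymerase genes (58) held 0.500 ± 0.0085% and splicing genes (114) 0.615 ± 0.0018%, with lsm7 of the U6 particle at 207 and 225 FPKM. Genes of unknown function were not all low: SPCC553.10 (1577 and 1580 FPKM) and SPAC922.04 (1587 and 1509 FPKM) were the highest of 487 sequence orphans and uncharacterised genes, whose median was 14.9 FPKM and whose share was 2.95 ± 0.027%. Of the 2249 genes in no class, cpc2, the RACK1 protein of the ribosome (2693 and 2704 FPKM), tma19, the TCTP homologue (2680 and 2507 FPKM), and spi1, the Ran GTPase of nuclear transport (1958 and 1919 FPKM), were highest.

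Core histone genes, which package DNA, gave 0.955 ± 0.0084% in 9 genes. The H2B gene htb1 was at 1560 and 1557 FPKM, the H4 gene hhf1 at 1352 and 1298 FPKM, and the H3 genes hht1 and hht3 at 1214 and 1215 FPKM and at 1209 and 1177 FPKM. The H2A gene hta2 was at 861 and 851 FPKM, whereas the other H2A gene, hta1, and the H4 gene hhf3 had no read, and both are fully covered by other gene models. Fission yeast histone promoters are known for the AACCCT box. These letters were found in the window of 9 of 9 histone genes, against 496 of 5108 windows overall (9.71%), and in doubled form, AACCCTAACCCT, also in 9 of 9, against 20 of 5108 (0.392%). The doubled box began between positions −140 and −59 from the gene start. The stretches of 3 of the higher histone genes are shown with the doubled box, on either strand, in capitals.
htb1 (chrIII:1412259-1412358, plus strand): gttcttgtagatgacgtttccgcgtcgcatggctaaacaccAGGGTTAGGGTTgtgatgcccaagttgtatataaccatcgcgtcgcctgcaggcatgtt
hht1 (chrI:4699632-4699731, plus strand): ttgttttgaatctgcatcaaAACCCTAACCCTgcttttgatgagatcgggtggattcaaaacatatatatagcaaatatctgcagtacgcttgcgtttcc
hta2 (chrI:4053319-4053418, minus strand): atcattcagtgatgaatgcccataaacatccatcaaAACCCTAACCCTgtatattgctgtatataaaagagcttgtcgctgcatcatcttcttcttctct
The same letters were counted for both genes of the divergent pairs hht1 and hhf1, hht2 and hhf2, hht3 and hhf3, and htb1 and hta1, so the 9 genes rest on 5 distinct boxes. The boxes of hhf3 and hta1, which had no read, are those of hht3 and htb1.

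Paralogue families were often dominated by a single member. For glyceraldehyde-3-phosphate dehydrogenase, tdh1 carried 94.8% of the family's FPKM and gpd3, at 443 and 508 FPKM, 5.24%. Of the plasma membrane proton pumps pma1 carried 99.0% and pma2, at 11.7 and 13.1 FPKM, 1.01%. Of the cytosolic Hsp70 genes ssa2 carried 89.7% and ssa1, at 167 and 180 FPKM, 10.3%. In each of these families the replicates of the members did not overlap. Other families were shared more evenly. Elongation factor 1 alpha came from tef101 (44.7%), tef103 (42.1%) and tef102 (13.2%, 1445 and 1446 FPKM, with 60.6% of its span covered by another model), and elongation factor 2 from eft202 (60.2%, 814 and 811 FPKM) and eft201 (39.8%, 535 and 541 FPKM). The tef103 and tef102 transcripts are 94.8% identical in bases and those of eft202 and eft201 96.2%, so their reads may not be told apart with certainty. Histone H3 was split into hht1 (38.9%), hht3 (38.2%) and hht2 (22.9%, 729 and 701 FPKM), histone H4 into hhf1 (76.6%) and hhf2 (23.4%, 419 and 392 FPKM), and alpha tubulin into nda2 (63.1%, 350 and 340 FPKM) and atb2 (36.9%, 207 and 197 FPKM).

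**Figure D2:**
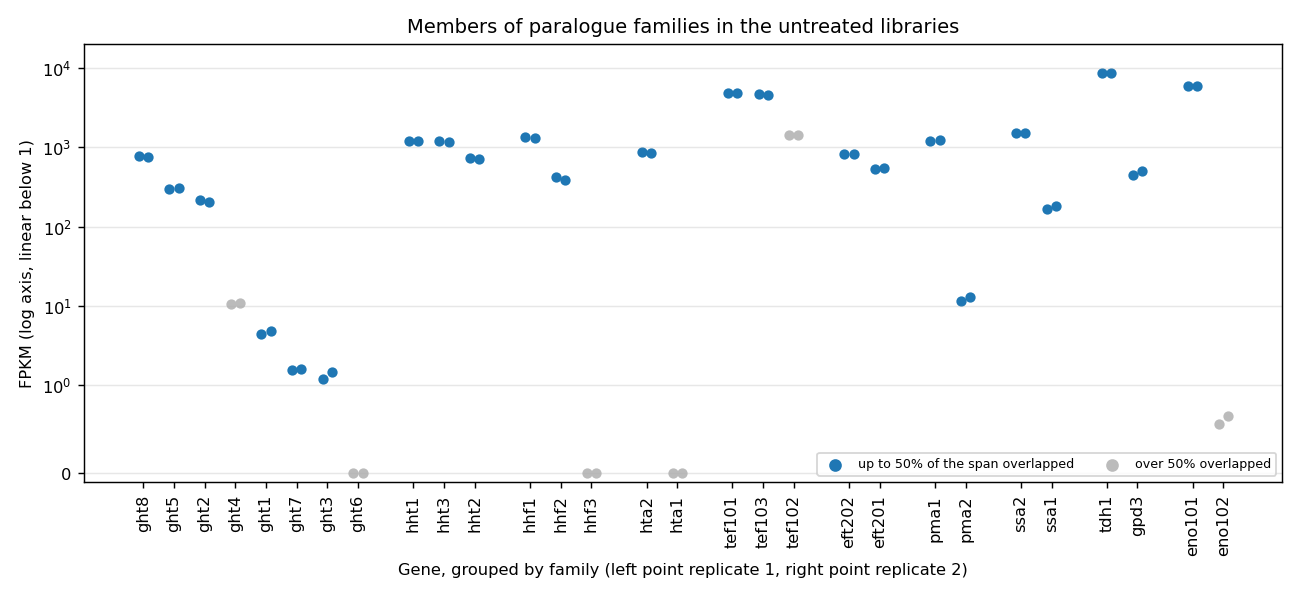
FPKM (log axis, linear below 1) of members of paralogue families in untreated replicate 1 (left point) and replicate 2 (right point); grey marks members with over 50% of their span covered by other gene models. The members with no read, ght6, hhf3 and hta1, are all grey, while tdh1 reaches 8605 and 8601 FPKM.

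The hexose transporters gave the longest ladder. The ght genes encode these sugar carriers, and 3 of the 8 made up nearly the whole family's RNA in this glucose medium: ght8 59.3%, ght5 23.1% (295 and 306 FPKM) and ght2 16.2% (219 and 201 FPKM). Their replicates did not overlap, so this order held in both libraries. The next members were ght4 (10.6 and 10.8 FPKM, 57.8% covered), ght1 (4.46 and 4.86 FPKM), ght7 (1.55 and 1.62 FPKM) and ght3 (1.21 and 1.45 FPKM), and ght6 had no read but is fully covered. For enolase and alcohol dehydrogenase, overlap bears on the lower member: eno102 (0.559 and 0.654 FPKM) has 78.5% of its span covered, and adh1 (0.0893 and 0.0658 FPKM), beside adh4 at 143 and 145 FPKM, has 93.2% covered.

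A search for reciprocal best matches between proteins, requiring 60% identity along 80% of both members, gave 150 paralogue pairs, 57 of them ribosomal protein pairs. Both members had reads in 117 pairs, and in 72 of these the higher member had at least 2 times the FPKM of the lower and in 24 at least 10 times. In 29 pairs the lower member had no read, which makes 101 pairs when they are counted as 2-fold, and in 4 neither had. Of the 40 pairs with a member covered over 50% or more of its span, 37 reached 2-fold, 23 of them with no read of the lower member, and in 35 the higher member was the less covered. Leaving out these pairs and those with transcripts at least 90% identical left 78 pairs. Of these 46 reached 2-fold, 9 reached 10-fold and 20 were below 1.5-fold, with a median ratio of 2.28. The higher member was the same in all 6 libraries for 45 of the 46. It was named by the mean of the 2 untreated libraries, which are among these 6, so this count is no independent check. The 36 ribosomal protein pairs among them had 15 at 2-fold or more and a median ratio of 1.87, and the 42 other pairs had 31 and a median ratio of 2.55; the difference between these sets was not tested. The most uneven ribosomal protein pairs of the 78 were rpl3401 and rpl3402 (313 and 290 FPKM for the lower copy, ratio 17.3) and rpl3001 and rpl3002 (3452 and 3344 FPKM against 272 and 260 FPKM, ratio 12.8).

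**Figure D3:**
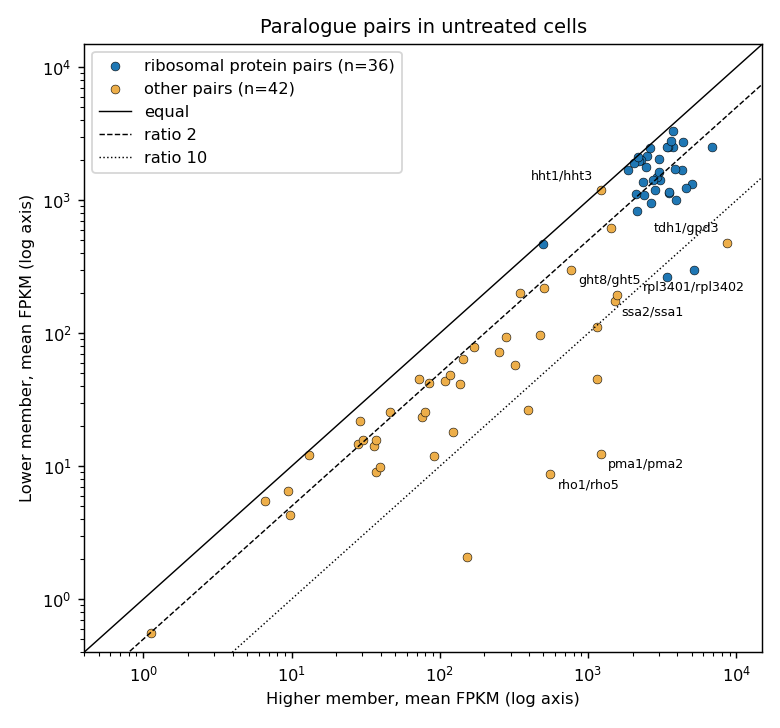
Mean FPKM of the lower member against that of the higher member (log axes) for the 78 paralogue pairs with both members covered over less than 50% of their span and transcripts under 90% identical, with 36 ribosomal protein pairs in blue and 42 other pairs in orange. The lines mark ratios of 1, 2 and 10, and 9 pairs lie at a ratio of 10 or more.

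Over all ribosomal protein pairs with reads in both members, the largest ratios were those of rps3001 and rps3002 (882 and 879 FPKM against 0.640 and 0.531 FPKM), rpl2001 and rpl2002 (1000 and 962 FPKM against 2.40 and 1.64 FPKM) and rpl101 and rpl102 (4109 and 4014 FPKM against 64.0 and 54.0 FPKM). In each of these the lower copy is covered over 71.8% to 100% of its span. The most even pairs were rpl3202 and rpl3201 (2215 and 2115 FPKM against 2129 and 2095 FPKM), rps1501 and rps1502 (ratio 1.04), rpl1201 and rpl1202 (559 and 432 FPKM against 522 and 422 FPKM), rpl15 and rpl1502 (ratio 1.07) and rpp102 and rpp101 (ratio 1.09). The replicates of rpl3202 and rpl3201 overlapped, as did those of rpl1201 and rpl1202, so neither pair had a higher copy beyond the spread. The coding sequences of rpl1201 and rpl1202 are 99.6% identical in bases, so their reads may not be told apart with certainty. Pairs outside the ribosome, chosen after their values were seen, were the cell wall GTPases rho1 and rho5 (560 and 556 FPKM against 7.95 and 9.42 FPKM), the vesicle GTPases arf1 and arf6 (ratio 25.2), and the serine hydroxymethyltransferases shm1 and shm2 (ratio 10.4).

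The barely detected genes were mostly genes that share their span with another gene model. Among the 1804 protein-coding genes with no overlap the median was 54.5 FPKM and 18 (0.998%) had no read. The median was 48.3 FPKM for genes covered over 10 to 25% of their span, 10.9 FPKM between 50 and 75%, 1.62 FPKM between 75 and 90%, and 0.0605 FPKM above 90% but short of complete coverage. Of the 421 genes covered completely 392 (93.1%) had no read; 396 of the 421 are covered completely by models on the opposite strand, and 374 of these had no read. Of all 836 genes below 1 FPKM, 621 were covered over more than 90% of their span and 82 over less than 10%, whereas of all 5145 genes 654 and 3017 were. The counting program named in the submitters' processing notes, featureCounts, by default leaves out a read that falls on more than a single gene, and the strand setting is not given in the sources used here, so a low value of a covered gene need not measure its RNA. The part of this setting in the low values was not tested. For a gene of median length (1792 bases), a count of 0 allows up to 3 reads, or 0.0863 and 0.0954 FPKM, which covers counting error only.

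**Figure D4:**
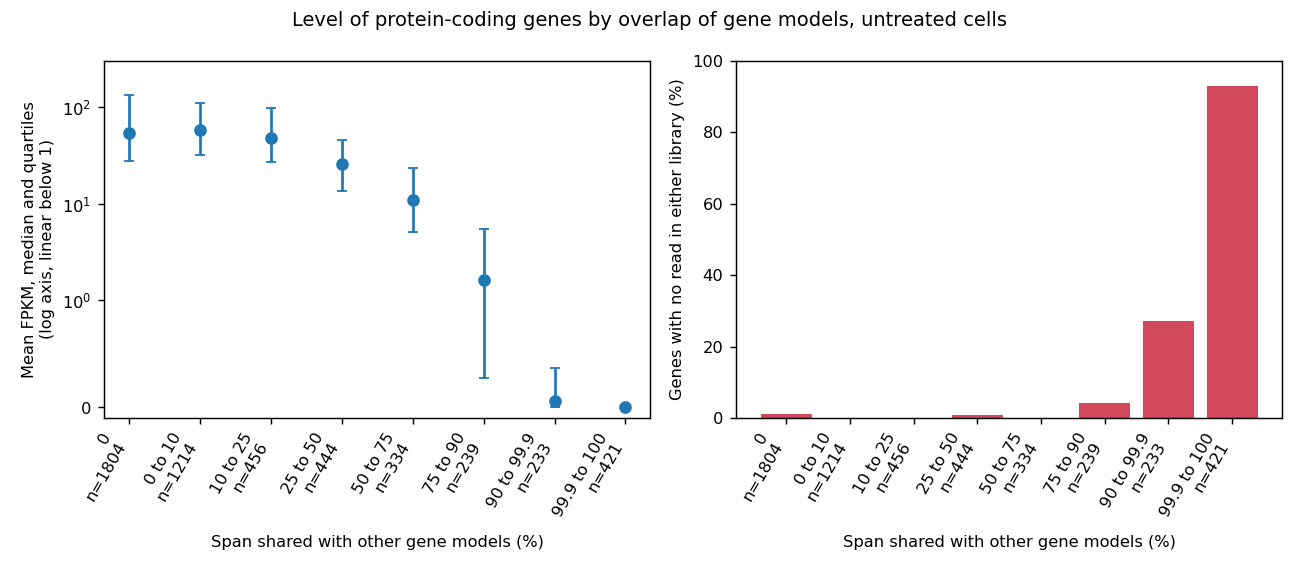
Median and quartiles of the mean FPKM of protein-coding genes (left, log axis, linear below 1) and percentage of genes with no read in either untreated library (right, bars), in 8 bins of the percentage of their span covered by other gene models. The percentage with no read goes from 0.998% of 1804 genes without overlap to 93.1% of 421 completely covered genes.

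The 82 genes below 1 FPKM with less than 10% of their span covered lay largely in a few places. Of these, 43 lay within 100 kb of the outermost gene models of chromosomes I and II, 5 on the mitochondrial genome and 4 on the contig of the mating-type region, which left 30 elsewhere. Near the ends of I and II the 100 genes with so little coverage had a median of 1.35 FPKM and 43 were below 1 FPKM, whereas the other 2366 such genes of I and II had a median of 59.1 FPKM and 27 were below 1 FPKM. A near-identical copy, matching 50% or more of the gene at 98% identity or better, was found for 44 of the 73 nuclear genes searched, 30 of them among the 43 genes near ends, and reads of such copies may not be assignable. By class, 29 were sequence orphans, 13 belonged to mating and meiosis, 10 were Tf2 elements and 6 were transporters. Examples chosen after their values were seen are tlh1 and tlh2, the RecQ-like helicase genes of the subtelomeres (0.0182 and 0, and 0.129 and 0.0568 FPKM), the siderophore transporter gene str3 (0.442 and 0.163 FPKM), and the meiotic gene moa1 (0.596 and 0.549 FPKM). The mitochondrially encoded genes cox2 (0.345 and 0.534 FPKM) and cox3 (0.189 and 0.626 FPKM) were also low in these polyA-captured libraries.

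Repeated elements were low but not all undetected. The 13 genes of Tf2, a retrotransposon of this genome, held 0.00243 ± 0.00020% of the sum. Tf2-6 was at 6.43 and 7.33 FPKM, Tf2-11 at 5.67 and 6.39 FPKM and Tf2-1 at 3.34 and 3.56 FPKM, while the 10 others were below 1 FPKM and each has a near-identical copy. The Tf2-6 transcript is 100% identical to that of Tf2-3, which had no read, so its level cannot be assigned to a single copy. All 20 wtf genes, a family of spore killers that act in meiosis, had reads, with means between 2.36 and 38.9 FPKM, and wtf14 was highest at 40.3 and 37.4 FPKM. The wtf4 and wtf13 transcripts are 99.4% identical in bases and those of wtf17 and wtf25 90.2%. Reads of such members may not be told apart with certainty.

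Mating and meiosis genes, 176 in number, held 0.378 ± 0.0066% with a median of 4.17 FPKM, and 60 were below 1 FPKM. Of the 176, 65 had over 50% of their span covered by other models. The 90 with less than 10% covered had a median of 15.5 FPKM, and 13 of these were below 1 FPKM. The highest member of the whole class, picked up by its name, is the RNA helicase ste13 (271 and 278 FPKM). Markers of the M mating type were detected unevenly. The M-factor pheromone gene mfm2 was at 52.2 and 55.1 FPKM, mam1, the M-factor exporter, at 15.8 and 16.5 FPKM, mam3, the M-cell agglutinin, at 9.75 and 9.57 FPKM and mfm1 at 2.15 and 2.52 FPKM, while mfm3 had no read but is fully covered. The mating-type genes that define M cells were close to 0, with mat1-Mc at 0.178 and 0 FPKM and mat1-Mi at 0.400 and 0 FPKM. Both have a copy elsewhere at 100% identity, so their reads may not be assignable and these values need not measure their RNA. The gene mam2, which stood in the list of P-cell genes but encodes the P-factor receptor that M cells carry, was at 24.3 and 24.3 FPKM. Of the P-cell genes, the P-factor gene map2 was at 3.02 and 3.24 FPKM, the receptor gene map3 at 3.36 and 2.58 FPKM and the regulator map1 at 2.33 and 2.99 FPKM; mat1-Pc and mat1-Pi were not analysed here. The pheromone gene mfm2 was thus above map2 and mfm1 below it, and the defining mating-type genes were too low to check the label.

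Of the markers of starvation and meiosis only isp6 lay above the median gene, while the 6 stress markers named here all lay above it. The meiotic regulators mei2 (1.71 and 2.01 FPKM), mei3 (0.623 and 0.324 FPKM) and mei4 (3.75 and 4.83 FPKM) and the sporulation gene spo5 (1.66 and 2.44 FPKM) were far below the median gene. The mating regulator ste11 was at 18.1 and 21.7 FPKM, the invertase gene inv1 at 21.3 and 25.8 FPKM and the starvation genes isp4 and isp6 at 19.5 and 23.5 FPKM and at 90.2 and 104 FPKM. The glucose-repressed gene fbp1 had no read but is fully covered by other models. Of the stress markers hsp9 was as high as 963 and 1109 FPKM, followed by the peroxidase gpx1 (390 and 418 FPKM), the catalase ctt1 (249 and 267 FPKM), the small heat shock protein hsp16 (217 and 270 FPKM) and the trehalose enzymes tps1 (226 and 240 FPKM) and ntp1 (108 and 110 FPKM). Each of these 6 stress markers was higher in replicate 2 than in replicate 1, as were 1952 of 3806 protein-coding genes above 10 FPKM.

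Genes that do not encode proteins gave under 1% of the summed FPKM of these polyA-captured libraries. The capture selects RNA with a polyA tail, so low values of other RNA need not measure its amount in the cell. Of 1534 non-coding RNA genes 931 had reads (60.7%), the median was 0.0921 FPKM and the class held 0.425% and 0.424% of the sum over all genes. SPNCRNA.129 (160 and 139 FPKM) and SPNCRNA.120 (149 and 137 FPKM) were the 2 above 100 FPKM, and SPNCRNA.105 followed at 80.3 and 79.0 FPKM. These 3 genes are 83, 118 and 194 bases long, so that SPNCRNA.129 rested on 257 and 203 reads. As with protein-coding genes, overlap went with low values: the 243 non-coding genes without overlap had a median of 1.62 FPKM, and 426 of the 473 completely covered had no read. None of 379 tRNA genes had a read, which for a gene of 73 bases allows up to 2.12 and 2.34 FPKM, and 365 of them are completely covered by other models. Of 88 rRNA genes 25 had reads; the 10 without overlap had a median of 72.9 FPKM, with the 28S genes SPRRNA.48 at 158 and 127 FPKM and SPRRNA.49 at 106 and 88.4 FPKM and the 18S gene SPRRNA.44 at 110 and 81.3 FPKM. Copies of rDNA are near-identical, and the 18S gene SPRRNA.43 was at 105 and 20.6 FPKM. Of 81 snoRNA genes 18 had reads, led by snoR61 (59.7 and 58.6 FPKM), snR101 (55.3 and 61.2 FPKM) and snoR39b (25.1 and 31.4 FPKM). Of 9 snRNA genes 3 had reads, and the highest, snu2, was at 0.551 and 1.52 FPKM. Of 29 pseudogenes 22 had reads, with SPCC132.05c at 45.8 and 49.5 FPKM, SPCC188.10c at 32.4 and 32.3 FPKM and SPCP20C8.03 at 26.0 and 23.4 FPKM.

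The highly expressed genes also shared features of sequence that the ranking did not use. Over the 2999 protein-coding genes with less than 10% of their span covered and a RefSeq coding sequence, the level had a Spearman rho of 0.355 with the G+C content at the last position of codons, of −0.217 with coding length and of 0.0532 with the number of introns. These are correlations across genes of the same libraries, given without a test. Without ribosomal proteins the first was 0.289 over 2898 genes. The 100 highest of these genes had a median of 47.4% G+C at that position and of 579 coding bases, against 32.8% and 1188 bases for all 2999. Ribosomal protein genes (101 genes, median 46.7%) and glycolytic genes (18 genes, median 46.9%) were alike in this measure, while 47.5% of the former and 83.3% of the latter had no intron. FPKM divides by length, so the relation with coding length is not independent of the unit.

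The untreated libraries were compared with the rest of the series gene by gene. With limma on log2(FPKM + 1) over 4847 genes, the untreated libraries differed from rapamycin in 883 genes (18.2%; 388 or 8.00% higher in untreated cells and 495 or 10.2% lower) and from rapalink-1 in 2298 genes (47.4%; 1122 or 23.1% higher and 1176 or 24.3% lower), where a call needs a p of at most 0.05 after adjustment by Benjamini and Hochberg over all genes tested. Both comparisons share the untreated libraries, so their values stand side by side only. The count against rapamycin was 416 without untreated replicate 1, 447 without untreated replicate 2, 499 without rapamycin replicate 1 and 236 without rapamycin replicate 2. Under quantile normalization the calls against rapalink-1 were 1488 higher and 942 lower, that is 61.2% higher in untreated cells in place of 48.8%. Without limma's trend of the variance, 31.3% of the calls against rapamycin were higher in untreated cells in place of 43.9%. The study describes the libraries of a group as biological replicates, and all flasks were divided out of a pair of mother cultures; the p-values measure the spread between these libraries.

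More ribosomal protein genes were higher than lower in untreated cells. Of the 116 tested, 103 were higher than with rapalink-1 and 0 lower, with a median log2 difference of 0.31 against 0.012 for all genes. These were 64 without untreated replicate 1 and 66 without rapalink-1 replicate 1, and 71 higher and 3 lower, with a median of 0.12, under quantile normalization. Against rapamycin 27 were higher and 0 lower, with a median of 0.17. This count was 1 without untreated replicate 1, 2 without untreated replicate 2, 95 without rapamycin replicate 1, 4 without rapamycin replicate 2 and 12 without either of the rapalink-1 libraries; under quantile normalization it was 11 higher and 1 lower with a median of 0.034. The class took 37.3% and 35.6% of the sum in the rapamycin libraries and 32.7% and 33.4% in the rapalink-1 libraries, so that neither group overlapped the untreated values. For example, rps2 was higher in untreated cells than with rapalink-1 by 0.35 ± 0.067 (log2 difference ± SE, limma, adjusted p = 0.0031).

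**Figure D5:**
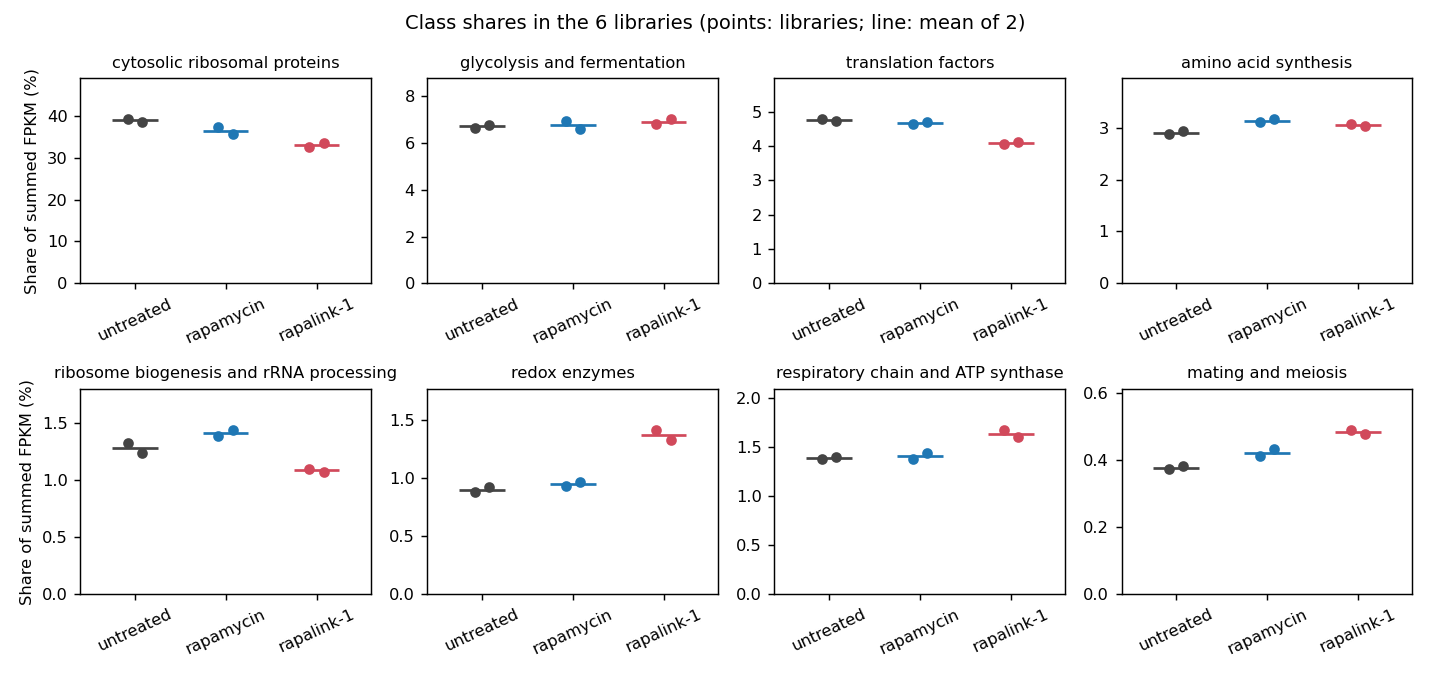
Share of the summed FPKM (percent, axes from 0) of 8 function classes in each of the 6 libraries (points), with the mean of each group of 2 as a line. Ribosomal proteins are at 39.1% and 38.6% in untreated cells and at 32.7% and 33.4% with rapalink-1, while redox enzymes are at 0.879% and 0.919% and at 1.41% and 1.32%.

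Of the translation factors, too, more were higher than lower in untreated cells: 37 of 48 were higher and 3 lower than with rapalink-1 (median 0.29), and 17 higher and 1 lower than with rapamycin (median 0.12). The count of 17 was 4 without untreated replicate 1, 8 without untreated replicate 2 and 3 without rapamycin replicate 2. The gene SPAC1006.07, which encodes the initiation helicase eIF4A (2511 and 2447 FPKM), was higher than with rapalink-1 by 0.51 ± 0.052 (log2 difference ± SE, limma, adjusted p = 0.000101), against 0.077 ± 0.052 for rapamycin (adjusted p = 0.337). Of 97 ribosome biogenesis genes, 42 were higher and 1 lower in untreated cells than with rapalink-1 (median 0.16), but 4 were higher and 37 lower than with rapamycin (median −0.20). The untreated replicates differed in this class as well: 81 of its 90 genes above 10 FPKM were higher in replicate 1, with a median log2 difference of 0.14. Of all 3806 protein-coding genes above 10 FPKM, 1854 were higher in replicate 1. The 42 were 25 without untreated replicate 1, and the 37 were 13 without untreated replicate 2, 16 without rapamycin replicate 1 and 10 without rapamycin replicate 2, while the sign of both medians stayed.

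Of all genes tested, 24.3% were lower and 23.1% higher in untreated cells than with rapalink-1. In a number of classes, also transporters and sequence orphans, more genes were lower than higher. Only some of these classes are listed here. These were redox enzymes (21 lower and 4 higher of 31, median −0.27), respiratory chain and ATP synthase (29 lower and 5 higher of 56, median −0.14), citric acid cycle (10 lower and 0 higher of 19, median −0.20), core histones (6 lower and 0 higher of 7, median −0.26), wtf genes (16 lower and 0 higher of 20, median −0.40) and mating and meiosis (45 lower and 11 higher of 116, median −0.13; 28 lower without untreated replicate 1). The peroxiredoxin gene tpx1 was lower in untreated cells by −0.77 ± 0.056 (log2 difference ± SE, limma, adjusted p = 1.24e-05), and the pheromone gene mfm2 by −2.52 ± 0.064 (adjusted p = 7.14e-08). Against rapamycin, mfm2 was lower by −0.45 ± 0.064 (adjusted p = 0.00369).

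Of 24 glycolytic genes tested, 0 were higher and 1 lower in untreated cells than with rapamycin, and 3 were higher and 9 lower than with rapalink-1 (median −0.025; 5 lower without rapalink-1 replicate 1, and 6 higher and 12 lower under quantile normalization). The genes tdh1, fba1, gpm1, eno101 and tpi1 passed the threshold in neither comparison, with log2 differences from −0.088 to 0.17 and standard errors of 0.072 to 0.087. Examples of family members that passed are gpd3, ssa1 and ght5, where 47.4% of all genes tested passed against rapalink-1. In untreated cells gpd3 was lower than with rapalink-1 by −0.59 ± 0.090 (log2 difference ± SE, limma, adjusted p = 0.000878). The same limma fit gave −1.60 ± 0.048 for ssa1 (adjusted p = 1.14e-07) and −0.74 ± 0.12 for ght5 (adjusted p = 0.00154). For ght8 it gave 0.097 ± 0.060 (adjusted p = 0.211). Major copies differed in level too: with rapalink-1, ssa2 was at 1869 and 1789 FPKM and eft202 at 576 and 622 FPKM. The minor copy pma2 stayed near its untreated level, at 11.1 and 11.3 FPKM. Membership of the head of the ranking was largely shared between groups. Of the 100 highest untreated genes, 97 were among the 100 highest with rapamycin and 89 with rapalink-1. Levels within this list differed: 80 of the 100 were higher in untreated cells than with rapalink-1 and 1 lower (median 0.29). Of all genes tested 23.1% were higher and 24.3% lower. Against rapamycin 13 were higher and 0 lower, beside 8.00% and 10.2% of all genes. The list was picked by untreated level, and 79 of its genes encode ribosomal proteins.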

How the data were processed

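PolyA RNA was captured and sequenced as 150 bp paired-end reads from 6 libraries, 2 for each of untreated, rapamycin and rapalink-1. The submitters' processing notes name HISAT2 (2.0.5), StringTie (1.3.3b), featureCounts (1.5.0-p3) and DESeq2, and the study compared groups with DESeq2; the build, the strand setting and the annotation release are not given in the sources used here. The deposited table holds FPKM for 7268 genes. The deposited tables of differential genes list raw counts for genes with an unadjusted p under 0.05, and these served to find the constant of each library. Multiplied by gene length and this constant, 100% of the FPKM values came out as whole reads within 0.001; median-of-ratios factors of the deposited FPKM were nearly 1 in every library. The authors' fold changes and p-values in those tables were not used. No column of other samples was present (0).

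Genes were sorted into 31 classes by words in their description or name, the first match counting. The members and lists were chosen with earlier results of these data known. After the files were seen, 3 RNase P and MRP subunits and a calcium ATPase that the name rules had taken in were left out of the ribosomal protein and proton ATPase classes. Overlap is the percentage of a gene's span covered by any other gene model. Named genes are the 20 highest, the 3 highest of each class and other biotype, fixed paralogue families and markers, and the ribosomal protein pairs with the 5 largest and 5 smallest ratios. No protein table was used here, so pairs came from RefSeq coding sequences, translated and searched with BLASTP (BLAST 2.17.0, E at most 1e-10); pairs by name were run as an alternative.

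RefSeq (ASM294v3) held 6846 of the gene IDs and coding sequences of 5109 protein-coding genes (99.3%). Its gene starts need not equal those of the deposited models, and 1997 genes had both ends the same.

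Groups were compared with limma (3.58.1, R 4.3.3; trend, all 6 libraries, no block) on log2(FPKM + 1) for the 4847 genes with a mean of at least 1 FPKM. Fold changes are on that scale, which understates changes of low genes. Alternatives were the recovered reads with edgeR (4.0.16) or with DESeq2 (1.42.0), quantile normalization, another pseudocount (0.1), no filter or a filter of 10 FPKM, no trend, a replicate block and each library left out. The limma step was tested on simulated data. Values were handled in Python (3.11.15) with pandas (2.3.3) and drawn with matplotlib (3.10.9).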

Additional observations from a re-analysis of the deposited data

How the results depend on the processing

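Of 54 alternatives over 7 results, 40 left the result within its limits and 14 moved it. In reads in place of FPKM, ribosomal proteins held 21.1% and glycolysis 7.22%, and 250 genes made up 50%. Over genes with no overlapping model these were 47.9%, 5.82% and 67 genes, and 78 genes were below 1 FPKM. With each untreated library left out the shares were 38.6% to 39.1% and 6.64% to 6.78%, the genes for 50% were 127 to 129 and those below 1 FPKM 827 to 835. Pairs with a 2-fold difference were 64 with both members covered over less than 50% and 219 of 303 when formed by gene name, both settings chosen after seeing the data, and 101 to 104 with a library left out. The count against rapamycin (883) was 409 without the variance trend and 236 to 999 with a library left out; that against rapalink-1 (2298) was 1716 to 2158 with a library left out. Against rapamycin and rapalink-1 respectively the counts were 1020 and 2341 with edgeR, 791 and 1900 with DESeq2, 875 and 2430 with quantile normalization, 594 and 2173 without a filter. With the replicate number as a block they were 883 and 2307. Deviations of libraries with the same number correlated at −0.011, 0.0012 and 0.041 between groups, so the numbers were not taken as pairs. Leaving out a library leaves its group with 1, which is assumed to vary like the others. Depth limits mainly genes below 1 FPKM, and overlap of gene models limits what a low value measures.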

Other observations

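Genes of the TOR pathway, chosen after their values were seen, ranged widely in the untreated libraries. The kinases tor2 (20.4 and 20.7 FPKM) and tor1 (16.2 and 17.3 FPKM), which form the core of TOR complexes 1 and 2, were below the median gene. The complex 1 subunits mip1 (38.8 and 39.1 FPKM) and toc1 (50.0 and 52.3 FPKM) were above the median gene. Of the complex 2 subunits, sin1 (57.3 and 60.1 FPKM) was above it and ste20 (28.6 and 29.7 FPKM) below it. The complex 1 subunit tco89 was at 5.69 and 4.61 FPKM with 73.9% of its span covered by another model, and the complex 2 genes bit2 and bit61 were at 0.676 and 0.747 FPKM and without a read, bit61 being fully covered. The activating GTPase rhb1 was at 200 and 204 FPKM, and its negative regulators tsc1 and tsc2 were at 25.5 and 28.0 and at 31.3 and 32.8 FPKM. The kinases downstream of TOR were at 67.0 and 68.2 FPKM (psk1), 69.9 and 67.2 FPKM (sck1) and 27.0 and 26.7 FPKM (sck2), with gad8 in between. The gene fkh1, which encodes FKBP12, the protein that rapamycin binds, was the highest of them at 573 and 582 FPKM.

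The largest gaps between the untreated replicates among genes of at least 10 FPKM were those of urg1 (219 and 357 FPKM), a gene known to respond to uracil, ecl3 (46.4 and 73.4 FPKM), isp7 (48.1 and 76.0 FPKM), the uncharacterised gene SPBC19C7.04c (40.9 and 63.9 FPKM) and the ribosome biogenesis gene rrp36 (54.3 and 37.5 FPKM). Ribosomal protein genes were higher in replicate 1 for 101 of 115, with a median log2 difference of 0.034. Citric acid cycle genes were higher in replicate 2 for 17 of 19. Of all 3806 protein-coding genes above 10 FPKM, 1854 were higher in replicate 1 and 1952 in replicate 2. No test is possible between single libraries.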
